A study of Mus musculus with 21 samples.

Results

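Members of bone morphogenetic protein (BMP) signalling were followed across mouse colon: the ligands Bmp2, Bmp3, Bmp4, Bmp5 and Bmp7, the antagonists Grem1, Nog and Chrdl1, and the target gene Id1. These 9 genes were chosen by their symbols among the 24062 genes of the count table, and all 9 were among the 15936 genes with enough counts to be tested.

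RNA sequencing of whole colon tissue gave 21 libraries in 7 groups of 3, all from mice of the C57BL/6 strain. The animals were wild-type or carried App NL-G-F, a knock-in at the gene of the amyloid precursor protein that places mutations of familial Alzheimer's disease in the mouse's own gene. Tumours came from mice given AOM/DSS, in which the carcinogen azoxymethane is combined with dextran sulfate sodium, an agent that injures the colon lining. The question of the series is why mice with the App mutations responded differently to this treatment. The groups were wild-type male normal colon and tumour, knock-in male normal colon and tumour, normal colon and tumour of wild-type females, and normal colon alone of knock-in females. The labels list the normal libraries as not treated, whereas the design text also speaks of normal tissue beside tumours, so they are called normal colon here. If the labels hold, tumour and treatment differ together in every comparison of tumours with normal colon, and their effects cannot be told apart. The labels write the knock-in libraries as KIKI, give no age or number of animals, and name no separation of the tissue into cell types. Because nothing says that replicate libraries came from separate animals, p-values measure the spread between these libraries, which may in part be technical.

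BMPs are secreted ligands of the TGF-beta family that bind paired receptor kinases and pass the signal on through SMAD proteins. In the gut, signalling is strong toward the luminal surface, where it favours differentiation of the epithelium, and is held low around the crypt base by antagonists from the surrounding mesenchyme, which keep ligands from their receptors. Id1, an inhibitor of DNA binding by other transcription factors, is a direct target of the pathway and is often read as a sign of its activity.

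Library totals ran from 3414123 counts in wild-type male tumour replicate 2 to 26174008 in wild-type female normal replicate 1. The amount of 3 counts, taken as the floor, was 0.879 CPM (counts scaled to a library of 1000000) in the first and 0.115 CPM in the second. No replicate pair agreed within counting noise, with a chi-square per degree of freedom of 6.60 to 63.4 over the 21 pairs. All 8 epithelial marker genes were detected in every group, with summed levels of 5899 to 11022 CPM, and no group had an epithelial, smooth muscle or fibroblast marker at 0. The knock-in female normal replicates other than replicate 1 carry the same column name in the count table and are called a and b. The knock-in changes the sequence of App, so counts per gene do not check that label.

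**Figure D1:**
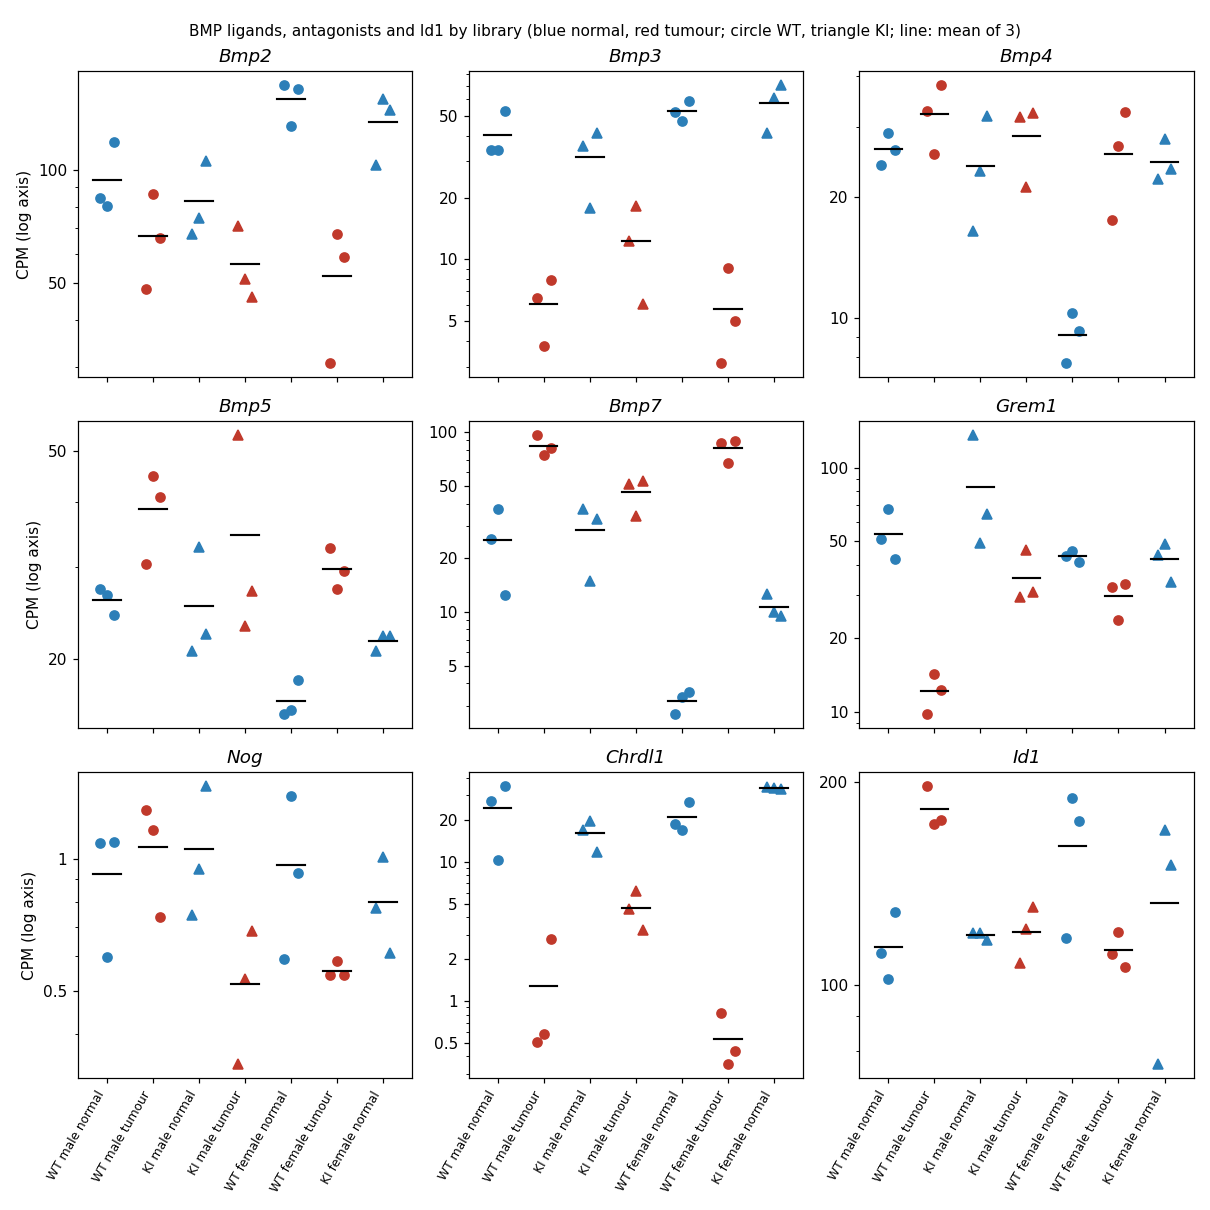
CPM of the 9 genes (log axis) in each of the 21 libraries, in 7 groups of 3, with blue points for normal colon, red for tumours, circles for wild-type, triangles for knock-in and a line at the mean. Bmp7 is lowest in wild-type female normal colon (2.71 to 3.56 CPM), Chrdl1 is below 1 CPM in every wild-type female tumour, and Grem1 is lowest in wild-type male tumours (9.79 to 14.3 CPM).

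The ligand genes lie on several chromosomes of GRCm38, the build that corresponds to mm10. GENCODE places Bmp2 at chr2:133552159-133562885 and Bmp7 at chr2:172868012-172940321. Bmp3 spans chr5:98854415-98884396, Bmp4 chr14:46383520-46390669 and Bmp5 chr9:75775364-75900310. Among the antagonists, Grem1 spans chr2:113746164-113758646, Nog chr11:89300638-89302332 and Chrdl1 chrX:143285674-143394262. Id1 lies at chr2:152736251-152737410. Bmp2, Bmp3, Bmp5 and Id1 are on the forward strand and the other 5 on the reverse strand.

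Promoter sequences are shown for Bmp4, Bmp5 and Grem1, the 3 of the 9 genes with an entry in RefSeq's GRCm38.p6 promoter table, because Bmp4 and Bmp5 were both higher in wild-type female tumours and Grem1 was lower in male tumours. Each is the 250 bases before the transcription start, 5′ to 3′ on the gene's strand. They correspond to chr14:46390670-46390919 on the reverse strand for Bmp4, chr9:75775115-75775364 on the forward strand for Bmp5 and chr2:113758649-113758898 on the reverse strand for Grem1. Capitals mark matches, on either strand, to any of 5 searched motifs: the GC box GGGCGG, the E-box CACGTG, the TCF/LEF core CTTTGA, the TATA box TATAAA and the GC-rich SMAD motif GGCGCC.
Bmp4: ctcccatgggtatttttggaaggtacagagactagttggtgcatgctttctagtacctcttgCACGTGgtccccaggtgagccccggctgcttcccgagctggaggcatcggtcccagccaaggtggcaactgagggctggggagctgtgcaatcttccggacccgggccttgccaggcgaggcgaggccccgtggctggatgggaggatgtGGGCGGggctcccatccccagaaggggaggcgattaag
Bmp5: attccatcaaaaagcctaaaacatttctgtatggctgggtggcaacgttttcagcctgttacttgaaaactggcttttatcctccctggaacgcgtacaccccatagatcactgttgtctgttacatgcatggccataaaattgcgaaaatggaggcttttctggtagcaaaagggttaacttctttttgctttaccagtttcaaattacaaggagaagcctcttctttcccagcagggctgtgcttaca
Grem1: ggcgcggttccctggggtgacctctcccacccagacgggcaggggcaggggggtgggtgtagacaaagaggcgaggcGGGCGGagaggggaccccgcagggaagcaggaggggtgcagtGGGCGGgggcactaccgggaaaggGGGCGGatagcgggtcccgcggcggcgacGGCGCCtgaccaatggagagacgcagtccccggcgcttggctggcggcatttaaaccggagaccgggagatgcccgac
The Bmp4 window held 1 GC box and 1 E-box, the Grem1 window 3 GC boxes and 1 GC-rich SMAD motif, and the Bmp5 window none of the 5. Of 32851 mouse windows of the same length, 32.7% held the GC box, 6.02% the E-box and 9.59% the GC-rich SMAD motif, while 13.8% held the TCF/LEF core and 12.4% the TATA box. The share of G and C was 63.2% in Bmp4, 42.8% in Bmp5 and 72% in Grem1, against a median of 52.4%. A match is a run of letters and not a shown binding site.

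Per length of exon, Id1 was the most abundant of the 9 genes in every group and Bmp2 was the leading ligand in every normal group. Mean levels of Id1 ran from 97.1 ± 5.88 CPM per kb (SD, n = 3) in wild-type female tumours to 157 ± 11.4 (SD, n = 3) in wild-type male tumours. Bmp2 stood at 43.5 ± 5.76 CPM per kb (SD, n = 3) in normal colon of wild-type females and at 26.5 ± 5.88 (SD, n = 3) in normal colon of wild-type males. In wild-type tumours Bmp7 had the highest mean of the ligands, at 20.9 ± 2.71 CPM per kb (SD, n = 3) in males and 20.2 ± 3.09 (SD, n = 3) in females, but the Bmp2 libraries overlapped it in both. Of the antagonists, Grem1 was the most abundant per length in all 7 groups. It reached 20.02 ± 11.1 CPM per kb (SD, n = 3) in knock-in male normal colon and 2.92 ± 0.54 (SD, n = 3) in wild-type male tumours. Nog never exceeded 0.867 CPM per kb in any library.

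**Figure D2:**
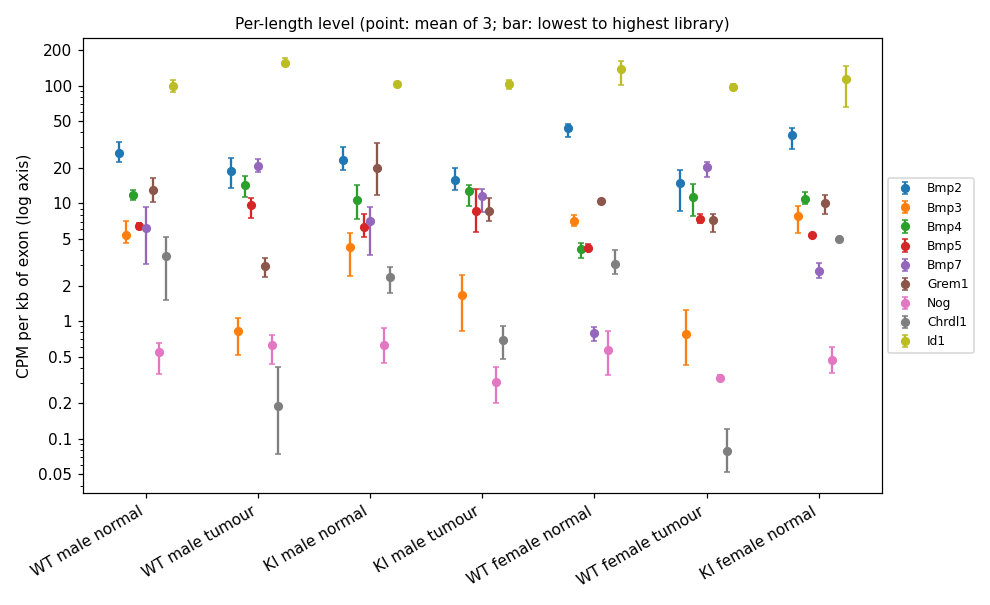
CPM per kb of exon (log axis) of the 9 genes in the 7 groups, with points at the mean of 3 libraries and bars from the lowest to the highest library. Bmp2 leads the ligands in normal colon, whereas Bmp7 spans from 0.797 CPM per kb in wild-type female normal colon to 20.9 in wild-type male tumours.

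Tumours were compared with normal colon in wild-type males, knock-in males and wild-type females. Bmp3 and Chrdl1 fell in all 3 comparisons, Grem1 fell in both male ones, Bmp7 rose in both wild-type ones, and Bmp2 fell and Bmp4 and Bmp5 rose in wild-type females. In wild-type males 5 of the 9 genes passed the threshold (edgeR's quasi-likelihood test, Benjamini-Hochberg adjusted p under 0.05 over all tested genes), 2 higher and 3 lower, where 35.7% of all tested genes passed, 16.5% higher and 19.3% lower. Among knock-in males 3 passed, each of them lower, against 20.4% of all genes, 10.4% higher and 9.97% lower. In wild-type females 6 passed, 3 higher and 3 lower, against 49.1%, with 25.0% higher and 24.0% lower. Tumour and normal libraries did not overlap in 6, 3 and 8 of the 9 genes in these comparisons, beside 52.4%, 33.6% and 58.4% of all tested genes. The median log2 fold change of the 9 genes was 0.19, -0.56 and -0.54 in these comparisons, beside medians of 0.01 over all tested genes in each. Every adjusted p below comes from the same edgeR fit unless another test is named.

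**Figure D3:**
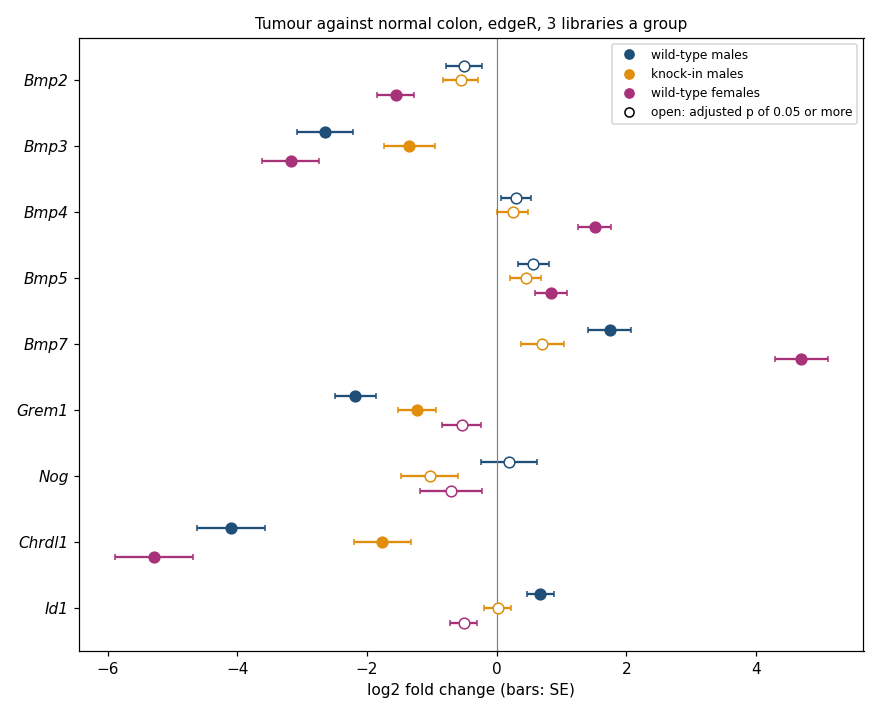
Log2 fold change of tumour over normal colon for each gene (bars: SE) in wild-type males, knock-in males and wild-type females, 3 libraries a group, with filled points for adjusted p under 0.05. Chrdl1 is the lowest in wild-type females (-5.29) and wild-type males (-4.10), and Bmp7 is the highest in wild-type females (4.70).

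Bmp2 is a ligand made mainly by differentiated epithelial cells in the gut. Wild-type female normal libraries held 169, 131 and 164 CPM of Bmp2, and wild-type female tumours 30.7, 67.8 and 58.8 CPM. All 3 tumours lay below all 3 normal libraries, and Bmp2 fell 2.95-fold (log2 fold change -1.56, SE 0.28, adjusted p 0.000227). Without the libraries numbered 152 to 154, which are replicates 2 and 3 of these tumours and replicate 3 of the knock-in male tumours, the log2 fold change was -2.31, still past the threshold. In males the groups overlapped. Wild-type male normal colon held 84.5, 80.2 and 118 CPM and the tumours 48.3, 86.4 and 65.9 CPM (log2 fold change -0.51, SE 0.28, adjusted p 0.168). Knock-in male normal colon held 67.8, 74.7 and 106 CPM and the tumours 71.1, 51.5 and 45.9 CPM (log2 fold change -0.56, SE 0.28, adjusted p 0.157). By mean level, both female normal groups stood above the male normal groups, and the 3 tumour groups came last.

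Bmp3, an atypical member of the family that counteracts other BMPs, is known as a gene silenced by methylation in human colorectal tumours. Wild-type male normal libraries held 33.9, 34.0 and 52.6 CPM and the tumours 6.48, 3.78 and 7.92 CPM, a fall of 6.63-fold (log2 fold change -2.65, SE 0.43, adjusted p 0.000222). Wild-type female normal libraries held 52.0, 47.2 and 58.7 CPM and the tumours 3.12, 9.12 and 5.002 CPM, a fall of 9.15-fold (log2 fold change -3.18, SE 0.44, adjusted p 1.75e-05). In both, tumours and normal colon were far apart without overlap. Knock-in male normal libraries held 35.8, 17.8 and 41.3 CPM and the tumours 12.3, 18.3 and 6.07 CPM, so that the highest tumour overlapped the lowest normal library (log2 fold change -1.35, SE 0.39, adjusted p 0.0246). These numbers come from the labels, where they lie apart from those of the same groups. Without these 3 libraries Bmp3 was at -4.05 in wild-type females, still past the threshold, and the call in knock-in males was not held (adjusted p 0.0572), without the knock-in tumour among them (0.0799), without knock-in male normal replicate 1 (0.0522) or 3 (0.106), or with a fit of the compared groups alone (0.116).

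Bmp4 is a ligand made mainly by mesenchymal cells under the epithelium. Wild-type female normal colon held the lowest values of all groups, at 7.74, 10.3 and 9.29 CPM, and wild-type female tumours held 17.5, 26.9 and 32.6 CPM. The groups did not overlap, and Bmp4 rose 2.82-fold (log2 fold change 1.51, SE 0.25, adjusted p 8.23e-05). Without the libraries numbered 152 to 154, which leaves 1 wild-type female tumour, whose spread is then assumed to be that of the other groups, the log2 fold change was 0.98 (adjusted p 0.0266). The other 5 groups overlapped one another. Wild-type male normal colon held 24.0, 28.9 and 26.3 CPM and the tumours 32.8, 25.6 and 38.1 CPM (log2 fold change 0.30, SE 0.24, adjusted p 0.345). Knock-in male normal colon held 16.5, 23.2 and 31.9 CPM and the tumours 31.7, 21.2 and 32.4 CPM (log2 fold change 0.25, SE 0.24, adjusted p 0.471). The rise in females thus started from a low normal group and reached the level that the male groups had in both tissues.

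Bmp5 is another mesenchymal ligand of the lamina propria. It went from 15.7, 16.0 and 18.3 CPM in wild-type female normal colon to 32.7, 27.3 and 29.5 CPM in the tumours, a rise of 1.79-fold without overlap (log2 fold change 0.84, SE 0.25, adjusted p 0.00836). In wild-type males it was 27.3, 26.5 and 24.3 CPM in normal colon and 30.5, 44.8 and 41.0 CPM in tumours. Those groups did not overlap either, but the difference missed the threshold (log2 fold change 0.56, SE 0.24, adjusted p 0.0756); with limma voom it passed (adjusted p 0.0336), as it did with a fit of the compared groups alone (0.0328). In knock-in males normal libraries held 20.7, 32.8 and 22.4 CPM and tumours 53.7, 23.1 and 27.0 CPM (log2 fold change 0.45, SE 0.24, adjusted p 0.182). Replicate 1 alone stood high among the knock-in tumours.

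Bmp7, a ligand found in epithelial cells of many organs, had the widest range of the ligands. Wild-type female normal libraries held 2.71, 3.34 and 3.56 CPM, from 64, 24 and 23 counts, and wild-type female tumours 87.2, 66.9 and 89.5 CPM. The rise was 25.3-fold (log2 fold change 4.70, SE 0.41, adjusted p 2.89e-07). Wild-type male normal libraries held 25.3, 37.4 and 12.3 CPM and the tumours 96.0, 74.8 and 81.1 CPM, a rise of 3.36-fold without overlap (log2 fold change 1.74, SE 0.33, adjusted p 0.000810). Knock-in male normal libraries held 37.6, 14.7 and 32.9 CPM and the tumours 51.2, 34.1 and 53.2 CPM, with overlap (log2 fold change 0.71, SE 0.33, adjusted p 0.132). By mean level the order ran from wild-type female normal colon through knock-in female normal colon, both male normal groups and knock-in male tumours to the wild-type tumours. The male normal groups overlapped each other, as did the wild-type tumour groups.

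Grem1, or gremlin 1, is an antagonist secreted by myofibroblasts and smooth muscle near the crypt base. Wild-type male normal libraries held 51.0, 67.8 and 42.2 CPM of Grem1 and the tumours 9.79, 14.3 and 12.2 CPM, a fall of 4.43-fold (log2 fold change -2.18, SE 0.32, adjusted p 8.4e-05). In knock-in males Grem1 went from 136, 49.1 and 64.4 CPM to 29.6, 45.8 and 30.8 CPM, a fall of 2.35-fold (log2 fold change -1.22, SE 0.29, adjusted p 0.00991). Neither pair of groups overlapped, but knock-in male normal replicate 1 held the highest value of all libraries. Without it the log2 fold change was -0.72 (adjusted p 0.0388), and the adjusted p was 0.114 when the fit held the compared groups alone. In wild-type females Grem1 was 43.5, 45.6 and 40.9 CPM in normal colon and 32.5, 23.7 and 33.4 CPM in tumours. The tumours lay below the normal libraries, yet the difference missed the threshold (log2 fold change -0.54, SE 0.30, adjusted p 0.147), except with a fit of the compared groups alone (0.0137).

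Chrdl1, or chordin-like 1, is an antagonist that binds BMP ligands outside the cell, and it moved more than any other of the 9 genes. Wild-type female normal libraries held 18.7, 16.9 and 26.9 CPM, and the tumours 0.815, 0.351 and 0.435 CPM, from 6, 3 and 4 counts. The fall was 39.0-fold (log2 fold change -5.29, SE 0.60, adjusted p 2.75e-06), with 1 of the tumours at the floor of 3 counts. Wild-type male normal libraries held 27.0, 10.3 and 34.9 CPM and the tumours 0.504, 0.582 and 2.76 CPM, from 7, 2 and 30 counts, a fall of 18.8-fold (log2 fold change -4.10, SE 0.53, adjusted p 3.03e-05). Tumour replicate 2 lay below the floor, and without tumour replicate 3, the highest of the 3, the log2 fold change was -5.50, still past the threshold. Knock-in male normal libraries held 16.7, 19.4 and 11.7 CPM and the tumours 4.56, 6.15 and 3.23 CPM, a fall of 3.43-fold (log2 fold change -1.76, SE 0.44, adjusted p 0.0117). Tumours and normal colon did not overlap in any of the 3 comparisons. Without the libraries numbered 152 to 154 the call in knock-in males missed the threshold (adjusted p 0.0550), and Chrdl1 was at -4.63 in wild-type females (adjusted p 0.00249).

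Nog, or noggin, an antagonist with high affinity for BMP ligands, was scarce throughout. Its libraries held 4 to 23 counts, or 0.340 to 1.47 CPM. No comparison of groups passed the threshold for Nog, and the adjusted p was 0.772, 0.0980 and 0.340 for tumours of wild-type males, knock-in males and wild-type females. In knock-in males the tumours held 0.340, 0.532 and 0.685 CPM and the normal libraries 0.748, 0.950 and 1.47 CPM. These lay apart without overlap (log2 fold change -1.03, SE 0.44, unadjusted edgeR p 0.0295), and each tumour value rests on at most 9 counts.

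Id1 did not move one way across the tumour comparisons. In wild-type males it went from 111, 102 and 128 CPM in normal colon to 197, 173 and 175 CPM in tumours, a rise of 1.59-fold without overlap (log2 fold change 0.67, SE 0.21, adjusted p 0.0185). The call was not held without wild-type male normal replicate 1 (adjusted p 0.0585) or 2 (0.0680), or without wild-type male tumour replicate 1 (0.0731). In knock-in males Id1 was 120, 119 and 117 CPM in normal colon and 108, 121 and 130 CPM in tumours (log2 fold change 0.01, SE 0.21, adjusted p 0.969). In wild-type females it was 117, 189 and 175 CPM in normal colon and 111, 120 and 107 CPM in tumours, with normal replicate 1 among the tumours (log2 fold change -0.51, SE 0.21, adjusted p 0.0540). Without that replicate the log2 fold change was -0.69 (adjusted p 0.0144), and with the DESeq2 Wald test the adjusted p was 0.0414.

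Smooth muscle markers and most colonocyte markers fell in the 3 tumour comparisons, as did Bmp3 and Chrdl1. Most crypt base markers rose in the wild-type comparisons, as did Bmp7. In bulk tissue fewer cells of a type and less RNA per cell cannot be told apart. All 10 smooth muscle markers, among them Myh11, Actg2 and Des, fell in each of the 3 tumour comparisons. Their summed level was 2952 to 9821 CPM in wild-type male normal colon and 237 to 814 CPM in the tumours. In knock-in males it was 4672 to 8500 CPM and 921 to 1073 CPM, and in wild-type females 2028 to 4698 CPM and 214 to 259 CPM. Tumour and normal ranges were thus apart in every comparison, and none of the 10 markers was at 0 in any group. Set against this sum, Chrdl1 was 3.55 ± 0.07 CPM per 1000 CPM of smooth muscle markers (SD, n = 3) in normal colon of wild-type males and 2.48 ± 0.80 (SD, n = 3) in the tumours. In knock-in males the ratio was 2.85 ± 1.16 (SD, n = 3) in normal colon and 4.50 ± 1.13 (SD, n = 3) in tumours, with overlapping ranges, while in wild-type females it was 6.78 ± 1.36 (SD, n = 3) and 2.19 ± 0.82 (SD, n = 3). For Grem1 the ratio was 4.30 to 23.0 in normal colon and 15.1 to 47.1 in tumours of wild-type males, which overlapped, and 10.5 to 15.95 and 27.7 to 42.7 in knock-in males, which did not. It was 15.3 ± 6.90 CPM per 1000 (SD, n = 3) in normal colon of wild-type females and 125 ± 13.9 (SD, n = 3) in the tumours. These pairings of a gene with a marker sum were chosen after the values were seen and carry no test, and the part of the marker levels in the tumour results was not tested.

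**Figure D4:**
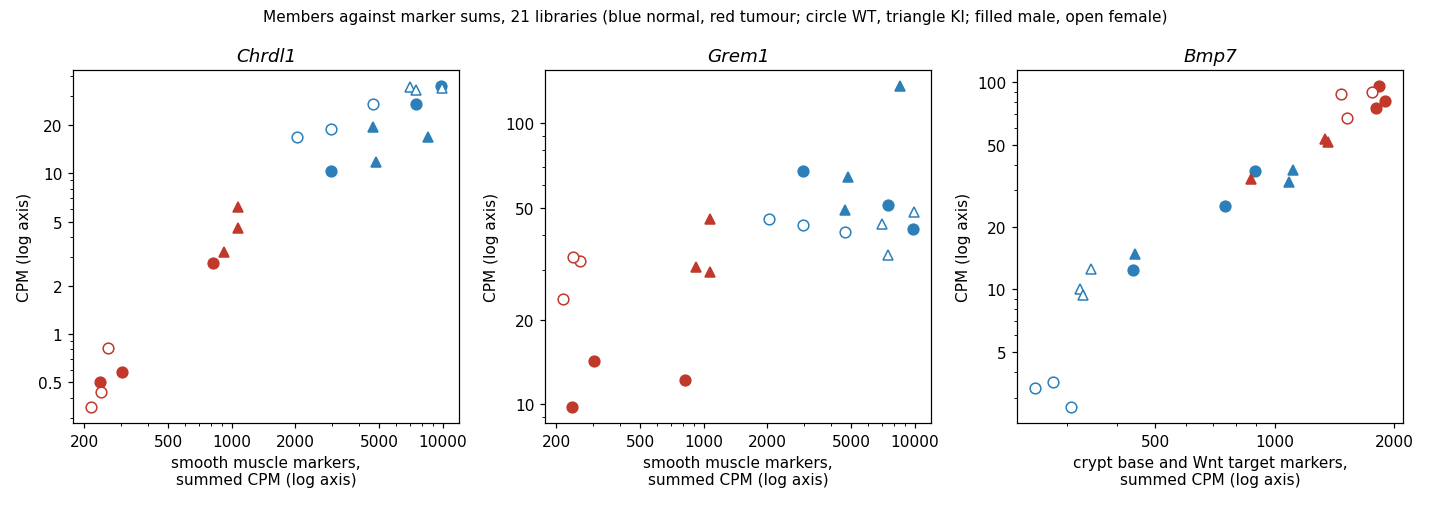
CPM of Chrdl1 and Grem1 against the summed CPM of 10 smooth muscle markers, and of Bmp7 against 7 crypt base and Wnt target markers, for 21 libraries (log axes; blue normal, red tumour; circles wild-type, triangles knock-in; filled male, open female). Wild-type female tumours have the lowest mean of Chrdl1 and 214 to 259 CPM of smooth muscle markers, and wild-type female normal colon is lowest in both Bmp7 and crypt base markers (249 to 308 CPM).

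Of the 8 epithelial markers, 1 rose and 6 fell in wild-type male tumours, and 1 rose and 7 fell in wild-type female tumours. In knock-in male tumours 1 rose and 0 fell. Colonocyte markers, such as Car1, Car4 and Slc26a3, fell in 5 of 6 tested genes in wild-type male tumours, 4 of 6 in knock-in male tumours and 6 of 6 in wild-type female tumours. Bmp3 per 1000 CPM of these markers was 27.1 ± 9.01 (SD, n = 3) in normal colon of wild-type males and 20.2 ± 8.71 (SD, n = 3) in tumours, and 19.5 ± 8.75 and 26.8 ± 11.1 (SD, n = 3 each) in wild-type females. Tumour and normal ranges of this ratio overlapped in both sexes. Bmp2 instead went from 64.8 ± 23.3 to 211 ± 20.9 (SD, n = 3 each) in wild-type males and from 58.2 ± 28.7 to 251 ± 88.7 (SD, n = 3 each) in wild-type females, without overlap. In knock-in males it was 85.2 ± 20.8 and 118 ± 54.0 (SD, n = 3 each), with overlap. The 7 crypt base and Wnt target markers, among them Lgr5, Ascl2 and Axin2, summed to 249 to 308 CPM in wild-type female normal colon and 1473 to 1758 CPM in the tumours, and to 441 to 894 and 1801 to 1903 CPM in wild-type males. The sums of knock-in males were 444 to 1111 CPM and 873 to 1363 CPM, which overlapped. Of the 7 markers, 4 rose and 1 fell in wild-type male tumours, and 6 rose and 1 fell in wild-type female tumours. In knock-in male tumours 0 of 7 passed. Bmp7 was 11.7 ± 2.54 CPM per 1000 CPM of these markers (SD, n = 3) in normal colon of wild-type females, below the 27.97 of the lowest library of any other group. Telocyte and subepithelial myofibroblast markers, among them Foxl1 and Wnt5a, rose in 3 of 5 genes in wild-type male tumours, 3 of 5 in knock-in male tumours and 5 of 5 in wild-type female tumours, and none of the 5 fell. Their sums were 204 to 297 CPM in normal colon and 363 to 399.9 CPM in tumours of wild-type males, 201 to 294 and 370 to 466 CPM in knock-in males, and 157 to 190 and 370 to 455 CPM in wild-type females. Bmp5 per 1000 CPM of these markers was 98.5 ± 3.23 in normal colon and 73.0 ± 7.91 in tumours of wild-type females (SD, n = 3 each), without overlap. It was 103.6 ± 14.9 and 102.3 ± 18.4 in wild-type males, and 107.7 ± 49.1 and 81.1 ± 31.0 in knock-in males (SD, n = 3 each). Tumour and normal ranges overlapped in both male genotypes. In wild-type female tumours, where Bmp4 rose, 4 of 5 endothelial markers rose, and of the 8 fibroblast markers 4 rose and 2 fell. The ribosomal RNA gene Rn45s also moved with wild-type tumours of both sexes. In females it took 2.84 to 3.18% of counts in normal colon and 7.96 to 9.998% in tumours. In wild-type males it took 4.90 to 8.26% and 9.30 to 13.1%. Knock-in males had 6.59 to 14.1% in normal colon and 6.95 to 8.23% in tumours, with overlap. The part of these levels in the results was not tested.

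Knock-in and wild-type colon were compared in male tumours, male normal colon and female normal colon. Knock-in male tumours held more Grem1 and Chrdl1 than wild-type ones, knock-in female normal colon held more Bmp4 and Bmp7, and no gene passed in male normal colon. The counts were 2 of 9 in male tumours, where 14.5% of all tested genes passed and 9.30% were higher, and 2 of 9 in female normal colon, where 16.0% passed and 8.97% were higher. In male normal colon 0 of 9 passed by edgeR, against 0.0126% of all genes. An unadjusted edgeR p under 0.05 was reached by 1 of the 9, beside 532 of all 15936 tested genes. The DESeq2 Wald test and limma voom also called 0. The genotypes did not overlap in 5 of 9 genes in male tumours, 0 in male normal colon and 4 in female normal colon, beside 36.4%, 7.08% and 37.8% of all tested genes.

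**Figure D5:**
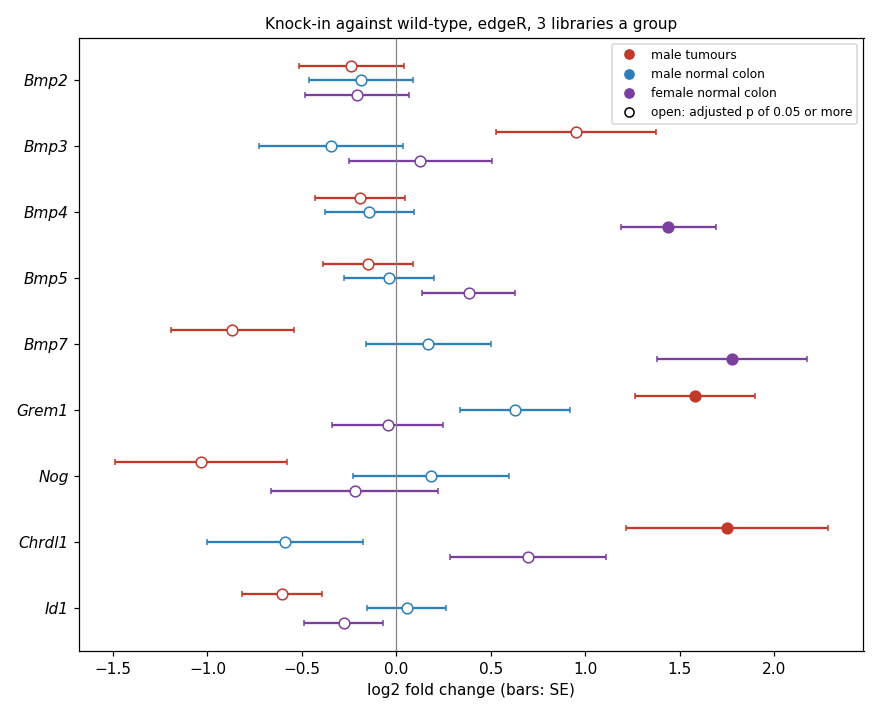
Log2 fold change of knock-in over wild-type for each gene (bars: SE) in male tumours, male normal colon and female normal colon, 3 libraries a group, with filled points for adjusted p under 0.05. Grem1 (1.58) and Chrdl1 (1.75) are filled in male tumours, and Bmp4 (1.44) and Bmp7 (1.78) in female normal colon.

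In male tumours Grem1 was 2.93-fold higher in knock-in than in wild-type mice (log2 fold change 1.58, SE 0.32, adjusted p 0.00786), with 29.6 CPM in the lowest knock-in tumour and 14.3 CPM in the highest wild-type one. Chrdl1 was 3.62-fold higher (log2 fold change 1.75, SE 0.53, adjusted p 0.0380), with 3.23 CPM in the lowest knock-in tumour and 2.76 CPM in the highest wild-type one. The groups were apart for both genes, widely for Grem1 and narrowly for Chrdl1. The call for Chrdl1 rests on few counts and was lost in many settings. Its adjusted p was 0.0531 with no low-count filter, 0.0862 with limma voom, 0.111 with only the compared groups, 0.0583 with a replicate block and 0.0527 without the libraries numbered 152 to 154. Without wild-type male tumour replicate 1 or 2 it was 0.175 or 0.0927, and without knock-in male tumour replicate 1 or 2 it was 0.0696 or 0.144. Without wild-type male tumour replicate 3, the wild-type tumour with most Chrdl1, the log2 fold change was 3.15 (adjusted p 0.0167).

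Id1 and Bmp7 had lower values in all 3 knock-in male tumours than in the 3 wild-type ones, but missed the threshold. Id1 was 120 ± 11.4 CPM (SD, n = 3) in knock-in and 182 ± 13.2 (SD, n = 3) in wild-type tumours (log2 fold change -0.60, SE 0.21, adjusted p 0.0598). Bmp7 was 46.2 ± 10.5 and 84.0 ± 10.9 CPM (SD, n = 3 each; log2 fold change -0.87, SE 0.33, adjusted p 0.0792). Both passed with the DESeq2 Wald test (adjusted p 0.0315 for Id1 and 0.0404 for Bmp7). Nog was also without overlap (log2 fold change -1.03, SE 0.45, adjusted p 0.123). Bmp3 was 0.95 higher on the log2 scale (SE 0.43, adjusted p 0.132) with overlap, and it passed without knock-in male tumour replicate 3 (1.26, adjusted p 0.0489) or the libraries numbered 152 to 154 (1.22, 0.0437). Bmp2, Bmp4 and Bmp5 differed by -0.24, -0.19 and -0.15 (adjusted p 0.580, 0.597 and 0.686), and without knock-in male tumour replicate 1 Bmp5 was at -0.66 (adjusted p 0.0355). Smooth muscle markers summed to 921 to 1073 CPM in knock-in and 237 to 814 CPM in wild-type male tumours, and 1 of the 10 passed the threshold, higher in knock-in tumours. Per 1000 CPM of that sum Grem1 was 34.6 ± 7.54 (SD, n = 3) in knock-in and 34.5 ± 17.1 (SD, n = 3) in wild-type tumours. Chrdl1 was 4.50 ± 1.13 and 2.48 ± 0.80 (SD, n = 3 each) in the same order, without overlap. The part of smooth muscle in these differences was not tested.

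In female normal colon Bmp4 was 22.2, 27.9 and 23.5 CPM in knock-in mice, against 7.74 to 10.3 CPM in wild-type mice, a difference of 2.69-fold (log2 fold change 1.44, SE 0.25, adjusted p 0.00118). Bmp7 was 12.5, 10.005 and 9.42 CPM against 2.71 to 3.56 CPM, a difference of 3.32-fold (log2 fold change 1.78, SE 0.40, adjusted p 0.00709). Both groups were tight and well apart. Without wild-type female normal replicate 1, the largest library, the call for Bmp7 missed the threshold (adjusted p 0.0518). Bmp5 was 21.7 ± 0.84 CPM (SD, n = 3) in knock-in and 16.7 ± 1.39 (SD, n = 3) in wild-type colon, and Chrdl1 33.7 ± 0.65 and 20.8 ± 5.37 CPM (SD, n = 3 each). Neither overlapped, and neither passed (adjusted p 0.302 and 0.263), although limma voom called Chrdl1 (0.0408). Smooth muscle markers summed to 7028 to 9873 CPM in knock-in and 2028 to 4698 CPM in wild-type female normal colon, with 5 of 10 higher. Bmp2, Bmp3, Grem1, Nog and Id1 had log2 fold changes of -0.21, 0.13, -0.05, -0.22 and -0.28, with adjusted p of 0.387 to 0.940. Fibroblast markers summed to 1195 to 1452 CPM in wild-type and 2384 to 3005 CPM in knock-in female normal colon. Endothelial markers summed to 46.3 to 77.1 and 115 to 127 CPM in the same order. Of the 8 fibroblast markers 4 were higher in knock-in colon, and of the 5 endothelial markers 3. All 4 mesothelial markers were lower, with sums of 1.24 to 2.50 CPM in knock-in and 2.17 to 27.4 CPM in wild-type colon, and Upk3b was at 0 in the knock-in group. Rn45s took 4.85 to 5.96% of counts in knock-in and 2.84 to 3.18% in wild-type libraries. Bmp4 per 1000 CPM of fibroblast markers was 9.48 ± 0.33 (SD, n = 3) in knock-in and 6.87 ± 1.66 (SD, n = 3) in normal colon of wild-type females, without overlap. Per 1000 CPM of endothelial markers it was 203 ± 34.5 and 156 ± 31.7 (SD, n = 3 each) in the same order, with overlap. The part of these cells and of Rn45s in the difference was not tested.

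In male normal colon each of the 9 genes overlapped between genotypes. Grem1 had the largest log2 fold change, 0.63 (SE 0.29, unadjusted edgeR p 0.0451, adjusted p 0.99998), with 136 CPM in knock-in replicate 1. Bmp2, Bmp3, Bmp4, Bmp5 and Bmp7 were at -0.19, -0.35, -0.14, -0.038 and 0.17, Nog and Chrdl1 at 0.18 and -0.59, and Id1 at 0.056.

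Whether the tumour effect in males differed between genotypes was tested as an interaction. By edgeR 0 of 9 genes passed, where 1.51% of all tested genes passed. An unadjusted edgeR p under 0.05 was reached by 5 of the 9, beside 4023 of all 15936 tested genes. The DESeq2 Wald test called 1, Chrdl1, and limma voom 0. Chrdl1 fell less in knock-in than in wild-type males by 2.34 on the log2 scale (SE 0.67, edgeR adjusted p 0.0663, DESeq2 adjusted p 0.0128), and it passed by edgeR without wild-type male normal replicate 2 (0.0386) or knock-in male normal replicate 2 (0.0350). For Bmp3 the difference was 1.30 (SE 0.57), for Grem1 0.96 (SE 0.43), for Bmp7 -1.04 (SE 0.46) and for Id1 -0.66 (SE 0.30), with adjusted p of 0.173 to 0.177. For all 5, the estimate in knock-in males lay nearer to 0 than that in wild-type males. These 5 were named for their unadjusted p. Of the rest, Bmp4 (0.30 in wild-type and 0.25 in knock-in males) and Bmp5 (0.56 and 0.45) also lay nearer to 0 in knock-in males. Nog (0.19 and -1.03) and Bmp2 (-0.51 and -0.56) lay farther from 0. The interaction for Nog was -1.22 (SE 0.61, edgeR adjusted p 0.221). For Bmp7, leaving out knock-in male normal replicate 2 gave -1.38 (adjusted p 0.0387).

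Females were compared with males within each tissue and genotype. In wild-type normal colon 2 of 9 genes passed, both lower in females, where 15.9% of all tested genes passed and 10.2% were lower. The sexes did not overlap in 4 of 9 genes there, in 3 in wild-type tumours and in 3 in knock-in normal colon, beside 34.2%, 31.2% and 19.7% of all tested genes. These were Bmp7, 7.81-fold lower (log2 fold change -3.01, SE 0.39, adjusted p 0.000136), and Bmp4, 2.90-fold lower (log2 fold change -1.55, SE 0.25, adjusted p 0.000589). Bmp2 was higher in females and Bmp5 lower, both without overlap and short of the threshold (log2 fold changes 0.72 and -0.65, adjusted p 0.0856 and 0.0766); limma voom called both (0.00731 and 0.00899). Bmp3, Grem1, Nog, Chrdl1 and Id1 were at 0.39, -0.31, -0.013, -0.21 and 0.49, with adjusted p of 0.117 to 0.987. The crypt base and Wnt target markers moved with Bmp7, with 6 of 7 lower in wild-type female normal colon, and 4 of 5 endothelial, 4 of 8 fibroblast and 2 of 5 telocyte markers moved with Bmp4. Their part was not tested.

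In wild-type tumours 0 of 9 genes passed between the sexes by edgeR, against 0.860% of all genes. An unadjusted edgeR p under 0.05 was reached by 2 of the 9, beside 3350 of all 15936 tested genes. DESeq2 and limma voom each called 2, Grem1 and Id1. Grem1 was 2.47-fold higher in female tumours (log2 fold change 1.33, SE 0.32, adjusted p 0.0523 by edgeR), with 23.7 CPM in the lowest female and 14.3 CPM in the highest male tumour. Id1 was 1.61-fold lower (log2 fold change -0.69, SE 0.21, adjusted p 0.0872 by edgeR), also without overlap. The DESeq2 adjusted p was 0.00348 for Grem1 and 0.0299 for Id1. The replicate block gave an adjusted p of 0.0440 for Id1. Bmp2, Bmp3, Bmp4, Bmp5 and Bmp7 were at -0.34, -0.14, -0.33, -0.37 and -0.052, and Nog and Chrdl1 at -0.91 and -1.40, with adjusted p of 0.279 to 0.948. Without wild-type male tumour replicate 3, Chrdl1 was at -0.0068. In knock-in normal colon 0 of 9 passed by edgeR, against 0.584% of all genes. An unadjusted edgeR p under 0.05 was reached by 5 of the 9, beside 2433 of all 15936 tested genes. DESeq2 and limma voom each called 2, Bmp7 and Grem1. Bmp7 was 10.6 ± 1.64 CPM (SD, n = 3) in females and 28.4 ± 12.0 (SD, n = 3) in males (log2 fold change -1.40, SE 0.34, edgeR adjusted p 0.0726). Grem1 was 42.1 ± 7.47 and 83.0 ± 46.2 CPM (SD, n = 3 each; log2 fold change -0.98, SE 0.29, edgeR adjusted p 0.118). Without knock-in male normal replicate 2 both passed by edgeR (0.0109 and 0.0201), whereas without knock-in male normal replicate 1 Grem1 was at -0.43 (0.466). Bmp2, Bmp3, Bmp4 and Bmp5 were at 0.69, 0.87, 0.034 and -0.23, Nog, Chrdl1 and Id1 at -0.42, 1.08 and 0.15, with adjusted p of 0.214 to 0.971.

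The remaining interactions bear on sex. In wild-type mice the tumour effect on Bmp7 was larger in females than in males by 2.96 on the log2 scale (SE 0.51, adjusted p 0.0129), the 1 gene of 9 to pass where 1.12% of all tested genes did. The call was not held without wild-type female normal replicate 1 (0.0609) or without the libraries numbered 152 to 154 (0.0842). Id1, Grem1 and Bmp4 came next, at -1.18, 1.64 and 1.21 (adjusted p 0.0587, 0.0720 and 0.0907), and DESeq2 and limma voom called all 3. In normal colon the genotype effect on Bmp4 was larger in females by 1.58 (SE 0.34, adjusted p 0.0217), again 1 gene of 9, where 2.54% of all genes passed. That call was not held without wild-type female normal replicate 1 (0.0741), knock-in female normal replicate a (0.0713) or knock-in male normal replicate 2 (0.0536). Bmp7 stood at 1.61 (SE 0.52, adjusted p 0.109). These comparisons share libraries with those above, wild-type female normal colon above all, and so are not independent of them.

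Other genes of the pathway were read from lists of receptors, transducers, further ligands and antagonists, and targets. Each count below stands beside the shares of all tested genes that passed, which were 16.5% higher and 19.3% lower in wild-type male tumours (35.7% in either direction), 10.4% and 9.97% in knock-in male tumours (20.4%) and 25.0% and 24.0% in wild-type female tumours (49.1%), and, between genotypes, 14.5% in male tumours and 16.0% in female normal colon. Of the other antagonists, 14 of 16 could be tested, and in wild-type male tumours 4 were higher and 3 lower. Chrdl2, a relative of Chrdl1, fell (log2 fold change -2.78, SE 0.63, adjusted p 0.00257), and Fst, which codes for follistatin, rose (2.36, SE 0.66, adjusted p 0.0114). In wild-type female tumours 7 antagonists were higher and 2 lower, led by Fst (4.13, SE 0.77, adjusted p 0.000313), Smoc1 (3.45, SE 0.51, adjusted p 3.04e-05) and Smoc2 (2.65, SE 0.38, adjusted p 3.08e-05), which is also in the crypt base list. In knock-in male tumours 1 was higher, Fst (2.03, SE 0.67, adjusted p 0.0415), and 1 was lower. The antagonists thus moved in both directions in every tumour comparison.

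Of the 9 other ligands, 4 had enough counts to test. Bmp8b, a ligand named from its likeness to Bmp8a, was higher in tumours of all 3 comparisons, of wild-type males (log2 fold change 1.30, adjusted p 0.0171), knock-in males (1.41, adjusted p 0.0190) and wild-type females (2.13, adjusted p 0.000464). Bmp8a was lower in wild-type male (-1.17, adjusted p 0.00142) and wild-type female tumours (-1.80, adjusted p 1.14e-05). The Bmp8 genes are close copies, so how reads were split between them is uncertain.

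Among the 11 tested receptors and co-receptors, Bambi, a decoy receptor that dampens the signal, was higher in tumours of all 3 comparisons, of wild-type males (log2 fold change 2.12, adjusted p 0.000125), knock-in males (1.32, adjusted p 0.0111) and wild-type females (1.61, adjusted p 0.000831). In wild-type males 3 receptors were higher and 3 lower, the latter led by the co-receptor genes Rgma (-2.21, adjusted p 0.000488) and Rgmb (-0.96, adjusted p 0.000102). In knock-in males 4 were higher and 1 lower, with Bmpr2, the type II receptor, at 0.79 (adjusted p 0.00210) and the type I receptor gene Bmpr1a at 0.48 (adjusted p 0.0450). In wild-type females 5 were higher and 2 lower, led by the endothelial co-receptor gene Eng (2.33, adjusted p 7.61e-07), with Acvr2b at 0.92 (adjusted p 0.00671).

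All 8 signal transducers were tested, and 3 were higher and 1 lower in wild-type male tumours, 1 higher in knock-in male tumours, and 2 higher and 1 lower in wild-type female tumours. The inhibitory Smad6 (log2 fold change 0.80, adjusted p 0.0142) and Smad7 (0.66, adjusted p 0.0153) were higher in wild-type male tumours, and Smad4, the shared partner of the pathway, was lower (-0.65, adjusted p 0.00243). Wild-type female tumours had more Smad7 (0.58, adjusted p 0.0213) and less Smad4 (-0.42, adjusted p 0.0230), and more Smad5 (0.71, adjusted p 7.52e-05), which also rose in knock-in male tumours (0.46, adjusted p 0.0129).

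Of the 5 tested targets other than Id1, 4 were higher and 1 lower in tumours of wild-type males and of wild-type females. In wild-type males Id3 was higher (log2 fold change 1.07, adjusted p 0.00141), as was Msx1 (2.81, adjusted p 0.00505), and Id4 was lower (-3.35, adjusted p 4.67e-05). In wild-type females Atoh8 (1.62, adjusted p 0.000189) and Id2 (0.84, adjusted p 0.00378) were higher and Id4 lower (-1.55, adjusted p 0.0103). In knock-in males the count was 1, Id2 (0.69, adjusted p 0.0292). Medians over the 5 targets were 1.04, 0.33 and 0.84 for wild-type males, knock-in males and wild-type females, beside the 0.01 of all tested genes.

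Between genotypes, the pathway genes of male tumours that passed included Rgma (log2 fold change 1.34, adjusted p 0.0350), Smad4 (0.62, adjusted p 0.0138) and Id4 (1.81, adjusted p 0.0196), higher in knock-in tumours, and Bambi (-1.21, adjusted p 0.0220), Smad7 (-0.73, adjusted p 0.0243), Smad6 (-0.72, adjusted p 0.0492), Id3 (-0.89, adjusted p 0.0184) and Atoh8 (-0.85, adjusted p 0.0415), lower. Each of these calls was lost in at least 1 alternative setting, with adjusted p of up to 0.187 (Smad6, without knock-in male tumour replicate 2). In male normal colon 0 pathway genes passed. In female normal colon Eng (1.99, adjusted p 6.21e-05), Nbl1 (1.65, adjusted p 0.000613), Acvrl1 (0.96, adjusted p 0.00389) and Id4 (2.21, adjusted p 0.00198) were higher in knock-in mice in every setting. Rgma (1.31, adjusted p 0.0241), Smad9 (1.24, adjusted p 0.0339), Fstl1 (0.63, adjusted p 0.0384) and Atoh8 (1.09, adjusted p 0.0177) were higher and Bmp8a was lower (-0.85, adjusted p 0.0190), with calls lost in some settings (up to 0.173). In the tumour comparisons, the named pathway genes whose calls were lost in some setting were Bmp8b, Fst, Smad6 and Smad7 in wild-type males (adjusted p of up to 0.0913), Bambi, Bmp8b, Bmpr1a, Fst, Id2 and Smad5 in knock-in males (0.215) and Acvr2b, Atoh8, Bambi, Id4, Smad4 and Smad7 in wild-type females (0.196).

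The genes whose levels ran most like each of the 9 were named by Pearson's r of log2 CPM over the 21 libraries, as a description, among about 12002 genes. The libraries fall into tumour and normal ones and share these, so no p is given. Chrdl1 was nearest to Mamdc2 (r = 0.988) and Pgm5 (0.986), and the next were the smooth muscle markers Tagln (0.985) and Myh11 (0.981), singled out after their values were seen. Bmp7 was nearest to Pcdhgc3 (0.986) and Nav1 (0.985), and Bmp3 to Slc5a6 (0.970) and Cela1 (0.970). Bmp2 was nearest to Pllp (0.942) and Osbpl6 (0.940). Bmp4 was nearest to Chst2 (0.929) and to Eng (0.927), the endothelial co-receptor gene above. Grem1 was nearest to Sfrp1 (0.927), an inhibitor of Wnt signalling, and Col8a1 (0.868), and Bmp5 to Klf12 (0.910) and Tgm4 (0.879). The highest values were lower for Nog (Spsb3 at 0.733 and Slc9a8 at 0.731) and Id1 (Gpx1 at 0.659 and Skiv2l at 0.658). Among the 9 genes themselves r was 0.915 for Bmp3 with Chrdl1, 0.826 for Bmp2 with Bmp3 and -0.843 for Bmp2 with Bmp7. Id1 reached no r beyond 0.490 in size with any other of the 9.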

How the data were processed

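RNA from mouse colon was sequenced in 21 libraries after RNase-H depletion of ribosomal RNA, per the labels' protocols. The deposited values are raw counts per gene, whole numbers that the authors did not normalize. Trimmomatic, HISAT2, featureCounts, DESeq2 and the build mm10 are named in the submitters' processing notes, and versions and the strand setting are not given in the sources used here. Without a known strand setting, reads of overlapping genes cannot be told apart.

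The 9 genes and all gene lists were chosen with earlier results of these data known. Counts were fitted with edgeR 4.0.16 in R 4.3.3 (TMM scaling, its default low-count filter by group, robust quasi-likelihood F test) over all 7 groups at once, which then share 1 estimate of spread, and 9 comparisons of pairs and 3 interactions were drawn from that fit. p-values were adjusted by Benjamini-Hochberg over 15936 genes, with a threshold of 0.05. CPM were computed with TMM-scaled totals, and 2 was the prior count for log2 CPM. Fold values are ratios of mean CPM, and log2 fold changes come from the fit. The floor covers counting error only, whereas each SE comes from the quasi-likelihood fit and so includes the spread between libraries. All 9 genes were named in each comparison of pairs. Of other pathway genes, up to 3 per list and comparison were named, by size of log2 fold change among those past the threshold with a mean of at least 50 counts in a compared group. A pathway gene that the rule would name is not reported here. Of genes with a like pattern, 2 per gene were named.

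Alternatives were DESeq2 size factors, library totals, other count filters, DESeq2 1.42.0, limma 3.58.1 (voom, quality weights), fits of the compared groups alone, a replicate block, and leaving out libraries. The main fit paired no samples. Same-numbered libraries deviated together at all 3 numbers only between wild-type male tumours and normal colon (r of 0.169, 0.174 and 0.215). Between knock-in and wild-type male normal colon, which cannot share animals, r was 0.461, -0.206 and -0.070. Such r values alone do not establish a pairing. The fit was tested on simulated counts for that comparison over 15936 genes, where 69% of 200 changed genes were recovered, 82% of those changed by 2 on the log2 scale, with 4 false calls and 0 calls in a comparison without change. DESeq2 recovered 70.5% with 27 false calls and 5 calls without change, and limma voom 67.5% with 4 and 0. The deposited DESeq2 table was not used. The knock-in female normal columns that share a name were assigned to their group only.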

Additional observations from a re-analysis of the deposited data

Results flagged for a closer look

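An interaction test in wild-type mice gave a larger tumour effect on Bmp7 in females than in males, by 2.96 on the log2 scale (edgeR adjusted p 0.0129). For Bmp4, the genotype effect in normal colon differed between the sexes by 1.58 (edgeR adjusted p 0.0217). Wild-type female normal colon, the group with the lowest Bmp7 and Bmp4, enters both.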

How the results depend on the processing

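Of 22 calls among the 9 genes, 22 kept their direction under every alternative and 14 stayed past the threshold in all of them. The number of the 9 genes past the threshold moved by over 1.5 times as follows, and the cause was not tested unless fewer samples were fitted. Tumours of knock-in males went from 3 to 1 with only the compared groups and to 1 without the libraries numbered 152 to 154. Knock-in against wild-type male tumours went from 2 to 1 with no low-count filter and to 4 with DESeq2, and ran from 1 to 3 when 1 library was left out. Knock-in against wild-type female normal colon ran from 1 to 2 on leaving out 1 library. Smaller moves were from 5 to 6 in wild-type male tumours and from 2 to 3 for genotype in female normal colon, both with limma voom or only the compared groups, and from 6 to 8 in wild-type female tumours with only the compared groups. Female against male wild-type tumours went from 0 to 1 with library totals, a mean of at least 50 counts or the replicate block, and to 2 with DESeq2, limma voom or only the compared groups. Female against male wild-type normal colon went from 2 to 4 with limma voom or only the compared groups. In knock-in normal colon it went from 0 to 2 with DESeq2 or limma voom and to 1 with only the compared groups, and ran from 0 to 2 on leaving out 1 library. The tumour effect by genotype went from 0 to 1 with DESeq2 and ran from 0 to 2. The tumour effect by sex went from 1 to 2 with library totals or the replicate block, to 4 with DESeq2 or limma voom, to 3 with only the compared groups and to 0 without the libraries numbered 152 to 154, and ran from 0 to 3. The genotype effect by sex went from 1 to 2 with DESeq2 and ran from 0 to 2. The replicate block changed no call of the 9 genes in wild-type male tumours. Its replicate effects were shared by all groups except knock-in female normal colon, so it is not a paired test of that comparison. It cannot decide what pairing would change, and in the other comparisons it joins libraries by number alone.

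The 40 values that changed sign belong to 21 results, all short of the threshold in the edgeR fit. In knock-in male tumours Id1 was at -0.019 with a mean of at least 50 counts, -0.0332 with the replicate block and -0.081 without the libraries numbered 152 to 154. Nog was at -0.0780 (male normal colon) and 0.13 (female normal colon) between genotypes with limma voom, Grem1 at 0.045 in female normal colon with library totals, and Bmp7 at 0.061 between the sexes in wild-type tumours without the libraries numbered 152 to 154. On leaving out 1 library, tumour effects ran from -0.071 to 0.42 for Nog in wild-type males, and in knock-in males from -0.066 to 0.64 for Bmp5 and from -0.0486 to 0.0377 for Id1. Genotype effects ran from -0.66 to 0.048 for Bmp5 in male tumours. In male normal colon they ran from -0.40 to 0.0063 for Bmp2, -0.40 to 0.050 for Bmp4, -0.28 to 0.074 for Bmp5, -0.15 to 0.57 for Bmp7, -0.12 to 0.36 for Nog and -0.019 to 0.15 for Id1, and in female normal colon from -0.042 to 0.33 for Bmp3, -0.15 to 0.098 for Grem1, -0.56 to 0.13 for Nog and -0.50 to 0.0082 for Id1. Sex differences ran from -0.64 to 0.14 for Bmp3 and -0.13 to 0.069 for Bmp7 in wild-type tumours, from -0.36 to 0.32 for Nog and -0.58 to 0.15 for Chrdl1 in wild-type normal colon, and from -0.17 to 0.30 for Bmp4, -0.35 to 0.0032 for Bmp5 and -0.063 to 0.43 for Id1 in knock-in normal colon.

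Over all genes, calls moved by more than 1.5 times as follows, apart from leaving out single libraries. Knock-in male tumours went from 3246 to 724 with only the compared groups and 2091 without the libraries numbered 152 to 154. Genotype in male tumours went from 2315 to 1438 with only the compared groups, in male normal colon from 2 to 6 with DESeq2 and 0 with only the compared groups, and in female normal colon from 2545 to 4506 with limma voom. Sex in wild-type tumours went from 137 to 340 with the mean of at least 50 counts, 885 with DESeq2, 2944 with limma voom, 1166 with only the compared groups and 23 without the libraries numbered 152 to 154, and in wild-type normal colon from 2534 to 5375 with limma voom and 1623 with only the compared groups. In knock-in normal colon it went from 93 to 582 with DESeq2, 698 with limma voom, 20 with other scalings or no filter, and 13 without the libraries numbered 152 to 154. The tumour effect by genotype went from 240 to 1326 with DESeq2, 1194 with limma voom, 408 with the mean of at least 50 counts, 405 without the libraries numbered 152 to 154, 95 with no filter, 1 with only the compared groups and 0 with the replicate block. The tumour effect by sex went from 179 to 311 with library totals, 581 with DESeq2, 1467 with limma voom, 73 with the replicate block and 13 without the libraries numbered 152 to 154, and the genotype effect by sex from 405 to 925 with DESeq2, 1098 with limma voom and 254 with only the compared groups. Leaving out 1 library gave 3659 (without wild-type male normal replicate 3) in wild-type male tumours, from 5697, 1392 (knock-in male normal replicate 3) in knock-in male tumours, and for genotype 429 (knock-in male tumour replicate 2) in male tumours and 1022 (knock-in female normal replicate a) in female normal colon. For sex it gave 12 (wild-type male tumour replicate 2) in wild-type tumours, 1037 (wild-type female normal replicate 2) in wild-type normal colon, and 5 to 649 (knock-in male normal replicates 3 and 2) in knock-in normal colon. It gave 0 to 2104 (wild-type male normal replicate 3 and knock-in male normal replicate 2) for the tumour effect by genotype, 31 to 544 (wild-type female tumour replicate 3 and wild-type male normal replicate 3) for that by sex, and 91 to 614 (knock-in female normal replicate a and wild-type female normal replicate 3) for the genotype effect by sex. The shares of all genes given beside the counts of the 9 genes move with these. Library totals moved the median log2 fold change of all genes furthest in wild-type female tumours, from 0.0081 to 0.15, where the share of calls that were higher went from 51.0% to 62.1%. That share went from 56.1% to 72.8% for genotype in female normal colon, from 46.7% to 61.2% for sex in wild-type tumours, from 36.1% to 21.4% for sex in normal colon of wild-type and from 31.2% to 55% in that of knock-in mice, and from 69.4% to 82.2% for the genotype effect by sex. Depth limits Nog in every group and Chrdl1 in wild-type tumours.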
